A study of Macaca mulatta with 25 samples.

Results

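In the cervix of ovariectomized rhesus macaques, 63 genes kept a mean signal near that of estradiol alone after 1 day of progesterone and had a lower one after 3, 7 and 14 days. They were found among 15534 genes listed with 1 symbol, each read from the probe set of that gene whose mean over the 25 arrays was highest. The rule asked for a mean log2 difference to estradiol alone within 0.25 of 0 on day 1 and at or below -0.6 on days 3, 7 and 14, with a mean log2 signal of at least 5.5 under estradiol alone. Genes whose symbol is only a locus number were left out, and 6 genes that met the levels (CFAP107, CFAP126, LMAN1, NDUFB3, TFF3 and TMED3) were left out by symbol. The 63 genes are 0.406% of all genes and 0.709% of the 8881 named genes that reached the signal minimum. Since these same values chose the genes, every difference of theirs to estradiol alone, and every one to day 1, is given below as a description with no test.

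The animals, 25 in all, were adult ovariectomized rhesus macaques (Macaca mulatta) in an artificial menstrual cycle, and each carried an estradiol implant under the skin. The group called E2 had estradiol alone for 14 days. A progesterone implant was added for 1 day in E+1P, 3 days in E+3P, 7 days in E+7P and 14 days in E+14P, with 5 animals and 5 arrays per group. The labels used here state neither the ages of the animals nor the days of estradiol in the 4 progesterone groups, so a longer time on estradiol and the progesterone itself cannot be told apart. Whole cervix was measured, a tissue with squamous epithelium, columnar and ciliated glandular epithelium, fibrous stroma and smooth muscle, and fewer cells of one kind cannot be told apart from less RNA per cell.

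The glands of the cervix secrete mucus. Secreted proteins enter the endoplasmic reticulum through a membrane channel, lose their signal peptide, receive N-linked sugars, fold with the help of isomerases and leave through the Golgi apparatus. Ciliated cells stand among the secretory cells and move mucus with motile cilia, which are built on a microtubule axoneme with dynein motors. Estradiol drives secretion of thin mucus and ciliation in the reproductive tract, and progesterone is known to oppose these effects.

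Both hormone markers differed between the groups in the known direction of progesterone action. FKBP5, a co-chaperone gene induced by progestins, had log2 signals of 5.23 to 5.95 in E2, 7.87 to 8.14 in E+1P, 7.08 to 8.59 in E+3P, 6.96 to 7.34 in E+7P and 6.76 to 7.88 in E+14P. PGR, the progesterone receptor gene, had means of 10.75, 9.65, 9.19, 9.58 and 9.99 from E2 to E+14P. Tissue makeup was not even across the arrays. Against the median of all arrays, in scaled median absolute deviations, 14 measured markers of columnar and glandular epithelium (of 15) had means of -8.15 in E+3P replicate 2 and -3.95 in E+3P replicate 3. The 12 measured markers of ciliated epithelium (of 15) lay at -4.10 and -4.22 in these arrays and at -3.72 in E+14P replicate 4. For squamous markers (9 of 16) the values were 3.81 in E+3P replicate 3 and 2.96 in E+14P replicate 5. Endothelial markers (8 of 9) lay at 7.09 in E+3P replicate 2, and markers of B and plasma cells (5 of 7) at 4.85 in E+3P replicate 3 and 3.58 in E+14P replicate 4. These 4 arrays, chosen with no fixed limit, are said below to stand apart, and values are also given without them. Other arrays were uneven too. E+3P replicate 1 lay at -2.83 for columnar and 2.72 for smooth muscle markers, and E+3P replicate 5 at -2.67 for myeloid markers. E2 replicate 3 lay at 2.52 for ciliated markers. Values without the 4 arrays are thus not free of uneven makeup.

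The E2 means of the 63 genes ran from 5.75 to 11.55. Their median difference to E2 was -0.12 in E+1P, -1.17 in E+3P, -0.78 in E+7P and -0.98 in E+14P, beside -0.00, 0.05, 0.02 and 0.03 for all 15534 genes. The largest difference of a group mean was -2.74, for ECRG4 in E+14P. E+3P had the lowest mean for 40 genes, E+14P for 16 and E+7P for 7. Without the 4 arrays that stand apart the count was 18 for E+3P, 25 for E+14P and 20 for E+7P, and the medians were -0.79, -0.78 and -0.81 for E+3P, E+7P and E+14P.

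**Figure D1:**
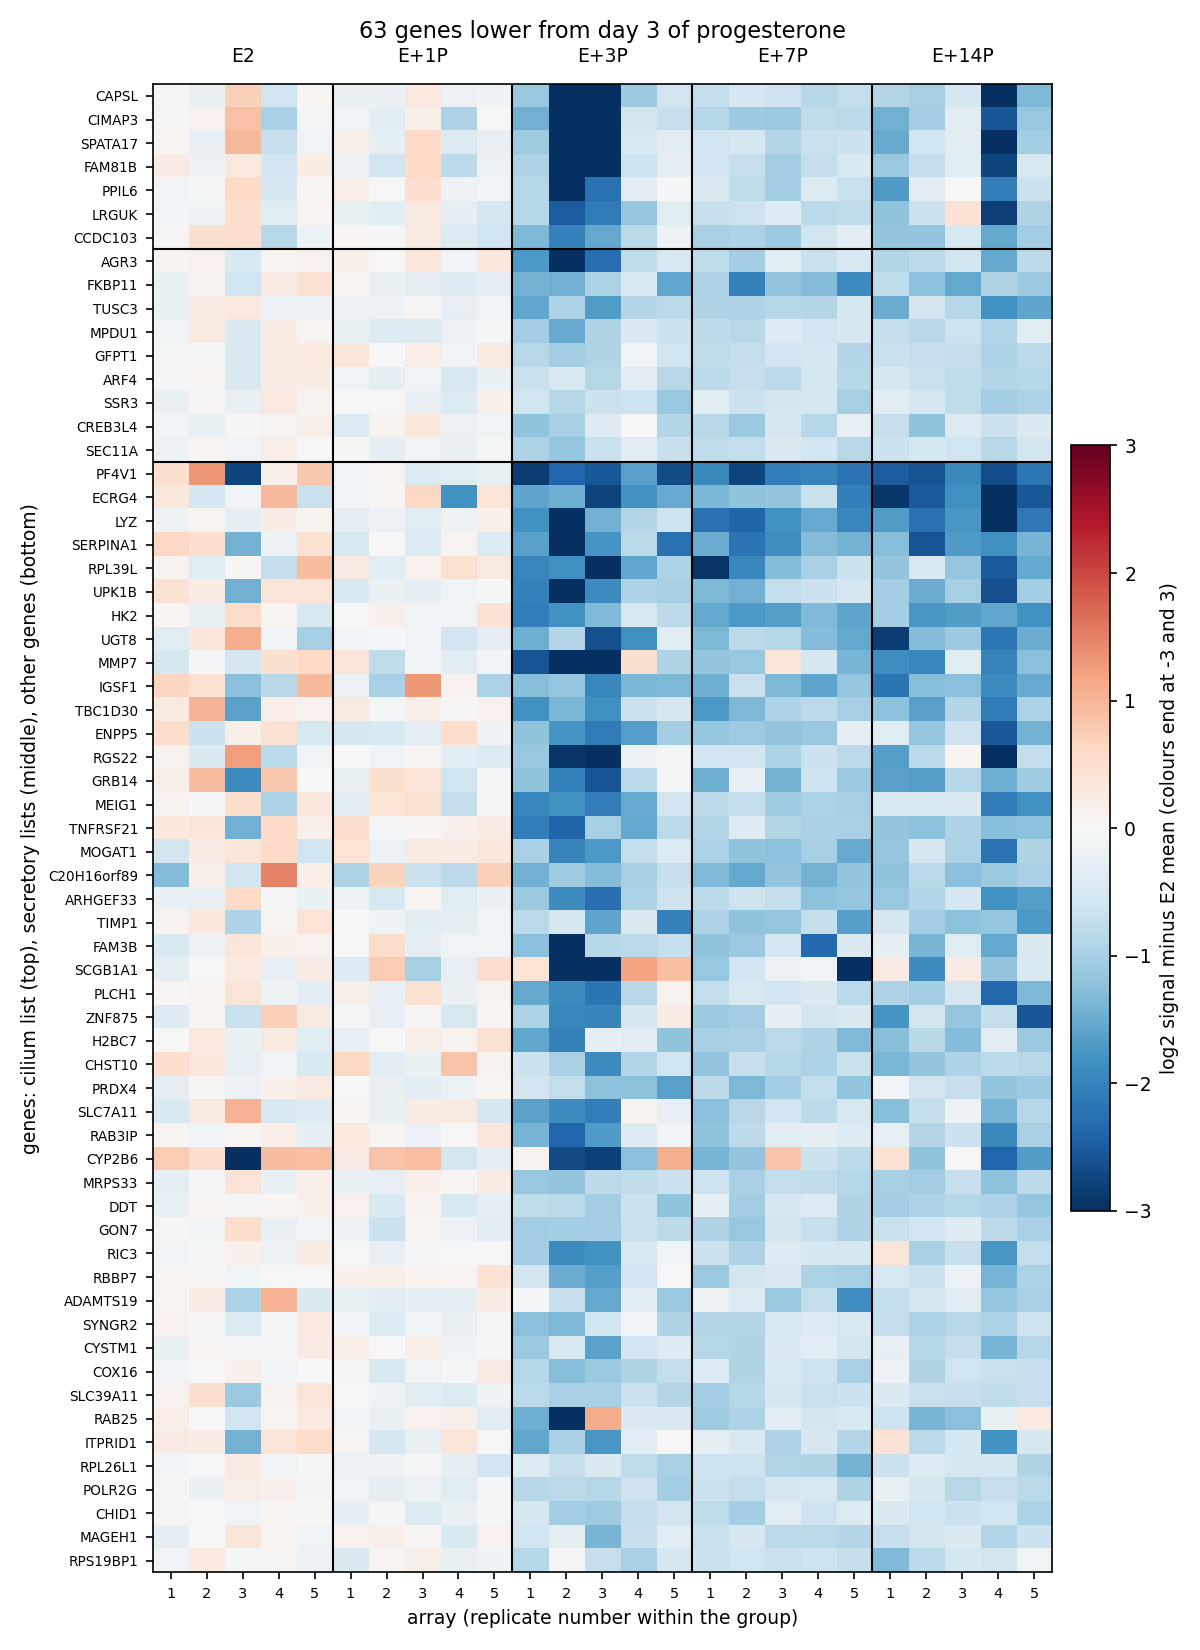
Log2 signal minus the gene's E2 mean for the 63 genes (rows) on each of the 25 arrays (columns, by hormone group), with blue for lower and red for higher. E2 and E+1P columns are mostly pale, the columns of E+3P replicates 2 and 3 and of E+14P replicate 4 hold the darkest cells, and E2 replicate 3 has both red and dark blue cells.

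Day 1 was less settled than the name of the pattern says. The E+1P mean was below E2 for 45 of the 63 genes and above it for 18, and the median standard error of this difference in limma was 0.33. For 37 of the 63 genes the 95% interval of the day 1 difference reached -0.6, the size asked of the later days, and for 20 it reached the smallest of the gene's own 3 later differences. These intervals come from the values that chose the genes and show only the precision of 5 animals per group. Among 307 named genes that met the 3 later limits and the signal minimum, 222 were already more than 0.25 lower in E+1P, 69 lay in the window and 16 were more than 0.25 higher. Membership itself moved with single animals. When each array was left out in turn, 54 to 73 genes met the rule, and 8 of the 63 met it in all 25 of these sets: LYZ, HK2, TUSC3, GFPT1, MRPS33, PRDX4, FAM3B and H2BC7. Without E2 replicate 3, 29 of the 63 remained, the fewest for any array. With group medians in place of means 60 genes met the rule, 27 of them among the 63.

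**Figure D2:**
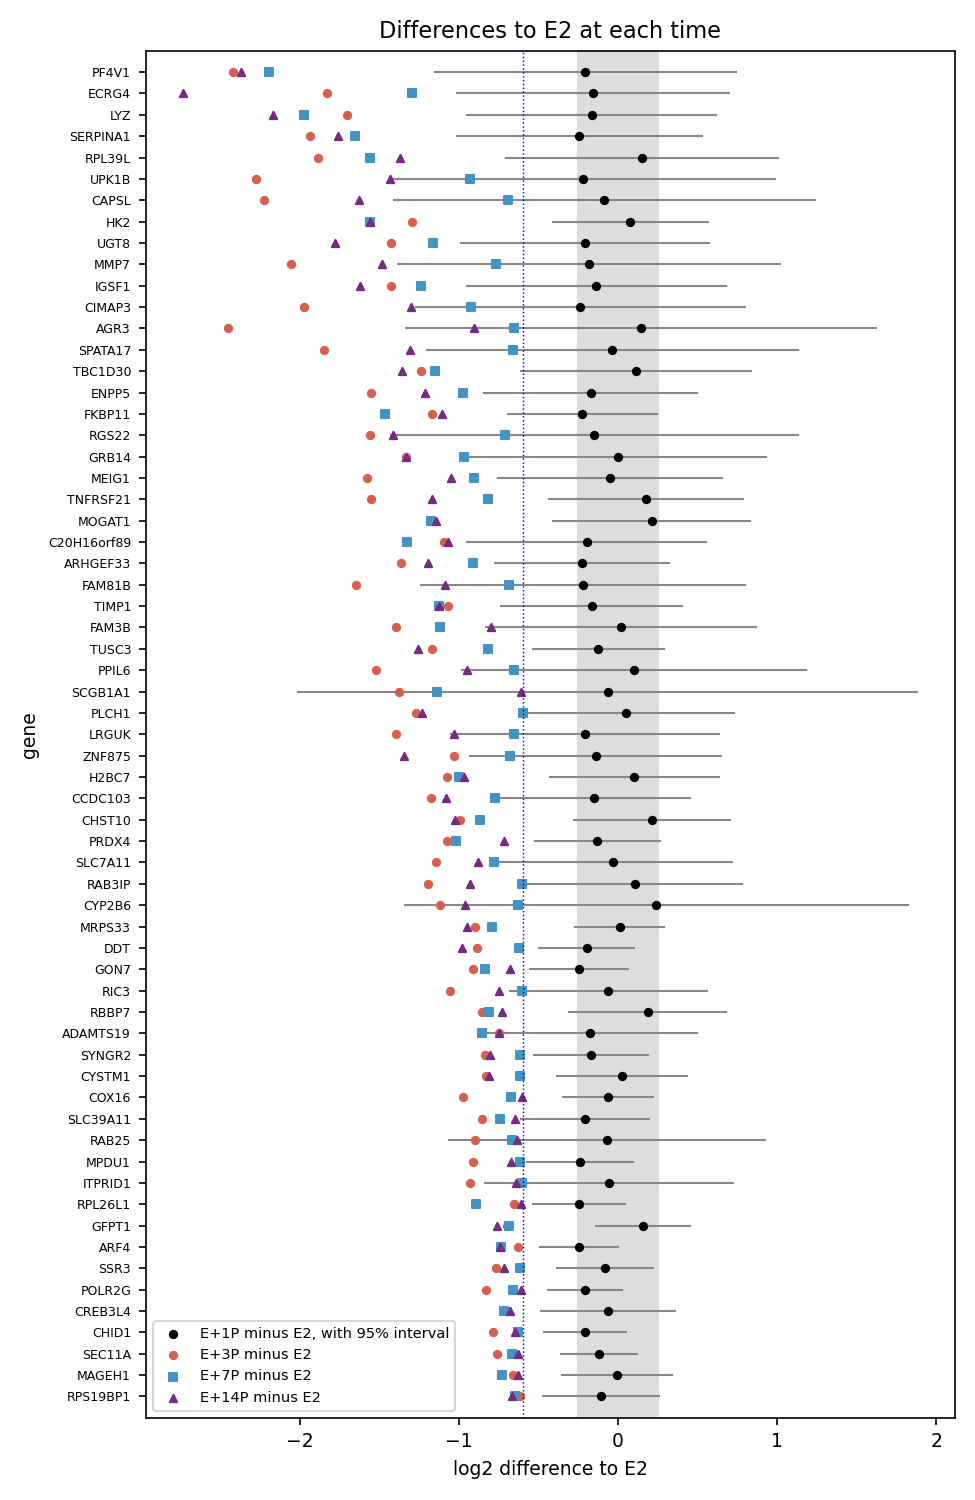
Group mean log2 signal minus the E2 mean for each of the 63 genes at 4 times, with the 95% limma interval drawn for E+1P, the grey band at -0.25 to 0.25 and the dotted line at -0.6. The day 1 points all lie in the band by the rule, while 37 of the 63 intervals reach the dotted line.

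In the arrays themselves, 0 of the 63 genes had E+1P fully below E2, each of the 5 arrays under the lowest E2 array, which 3.54% of all genes had. Full separation from E2 was seen in E+3P for 23 genes, which 4.17% of all genes had, in E+7P for 30 (4.68%) and in E+14P for 26 (3.99%). All 15 arrays of the later days lay below every E2 array in 15 genes (1.69% of all genes), and below all 10 E2 and E+1P arrays in 8 (0.29%): LYZ, HK2, ARHGEF33, TUSC3, CHST10, MRPS33, CYSTM1 and SEC11A. The rule asks for such a gap between means, so nothing is read from these shares.

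**Figure D3:**
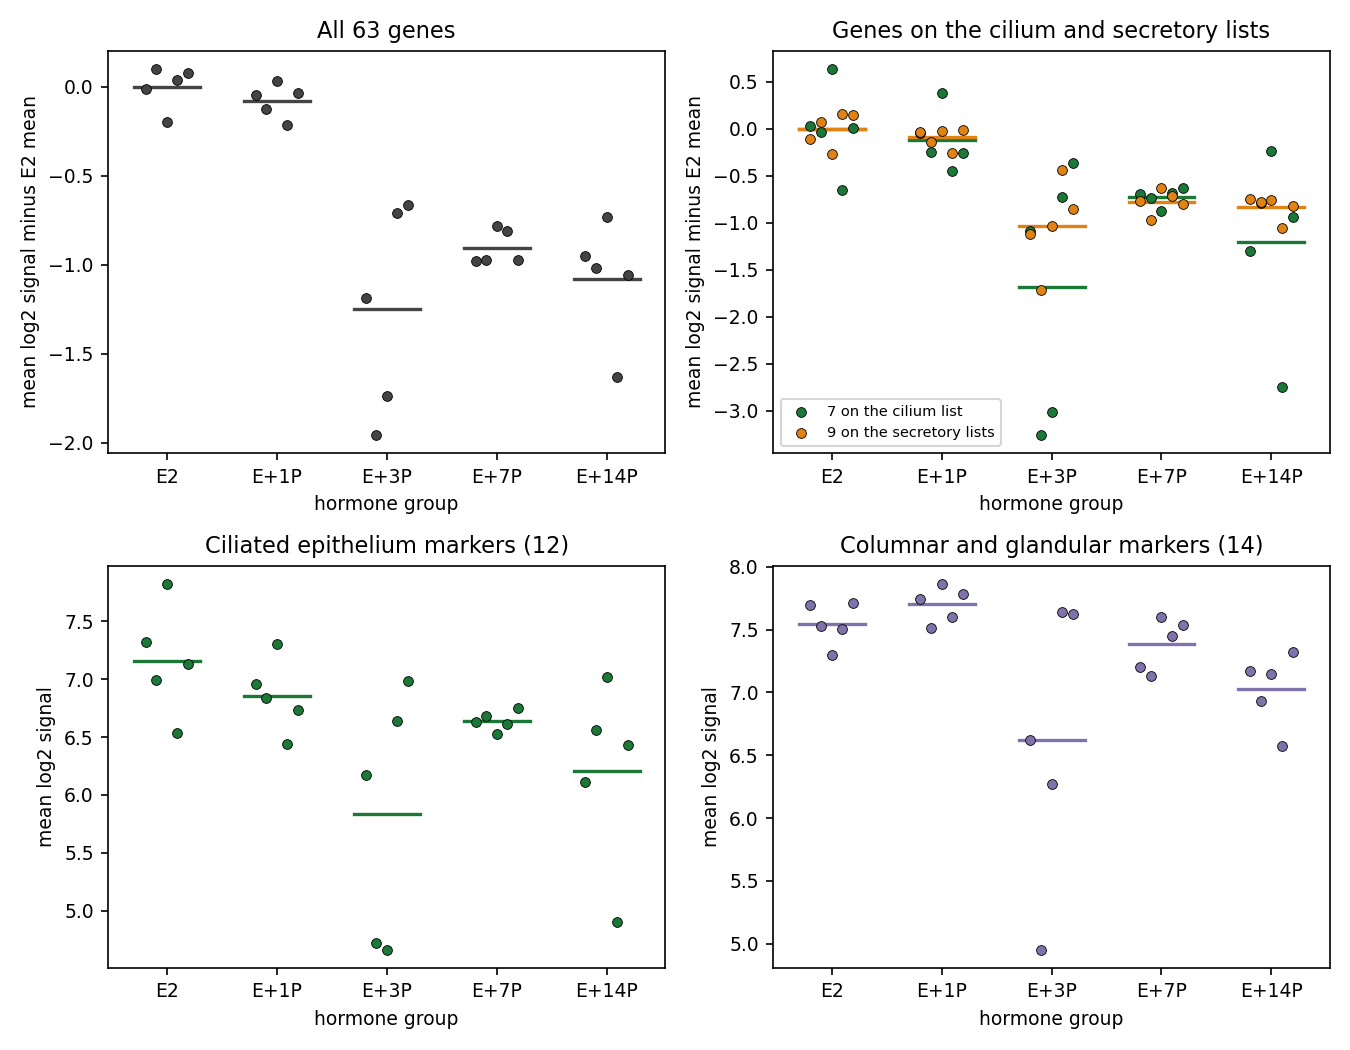
Mean over all 63 genes (top left) and over the 7 genes on the cilium list and the 9 on the secretory lists (top right), as log2 signal minus E2 mean, and mean log2 signal of the ciliated and the columnar markers (bottom), with 1 point per array and a line at the group mean. The array means of the 63 genes lie between -0.20 and 0.10 in E2, -1.96 and -0.67 in E+3P and -0.98 and -0.78 in E+7P.

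The rule fixes that the group means of E+1P lie near E2 and those of the later groups lower. The mean over the 63 genes is given here for its spread between arrays. It was -0.01, 0.10, -0.20, 0.04 and 0.08 in the E2 arrays and -0.05, -0.12, 0.04, -0.21 and -0.04 in E+1P. It was -1.18, -1.96, -1.74, -0.71 and -0.67 in E+3P, -0.98, -0.98, -0.78, -0.81 and -0.97 in E+7P, and -0.95, -1.02, -0.73, -1.63 and -1.06 in E+14P. The 5 E+7P arrays lay within 0.20 of each other, while the E+3P arrays spanned 1.29. The lowest arrays, E+3P replicates 2 and 3 and E+14P replicate 4, are also those with the lowest ciliated marker means, 4.72, 4.66 and 4.90 against 6.53 to 7.82 in the E2 arrays. The columnar marker mean was 4.95, 6.27 and 6.58 in the same arrays and 7.30 to 7.71 in the E2 arrays. The 5 E+7P arrays had ciliated means of 6.53 to 6.75 and columnar means of 7.13 to 7.60. The part of this tissue makeup in the values of the 63 genes was not tested.

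The secretory route supplied 9 of the 63 genes. Of the measured genes of each list, 5 of 114 for entry into and folding in the endoplasmic reticulum were among the 63, 3 of 94 for N-glycosylation and 1 of 143 for transport to the Golgi. These are 4.39%, 3.19% and 0.699%, beside 0.406% of all genes, and the Golgi share lies near that of all genes. The lists were written with earlier results known, so nothing is read from these shares. The mean over the 9 secretory genes was -1.11, -1.72, -1.03, -0.44 and -0.85 in the E+3P arrays. It was -0.97 to -0.63 in E+7P and -1.06 to -0.74 in E+14P. The value of -1.72, in E+3P replicate 2, includes AGR3 at -7.05, while the others ran from -1.52 to -0.47 in that array.

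SEC11A encodes the catalytic subunit of signal peptidase, which cuts the signal peptide from entering proteins. SEC11A had log2 signals of 8.83, 9.07, 8.88, 9.19 and 9.02 in E2 and 9.03, 8.72, 8.92, 8.78 and 8.93 in E+1P, and 8.04, 7.83, 8.33, 8.66 and 8.30 in E+3P, 8.24, 8.27, 8.55, 8.43 and 8.16 in E+7P and 8.36, 8.46, 8.40, 8.15 and 8.45 in E+14P. All 15 arrays of the later days lay below the 10 arrays of E2 and E+1P, by at least 0.06. SSR3, the gamma subunit of the translocon-associated complex at the same channel, gave 9.62, 9.87, 9.62, 10.14 and 9.94 in E2 and 9.85, 9.86, 9.64, 9.44 and 9.99 in E+1P, and 9.23, 8.99, 9.20, 9.22 and 8.69 in E+3P, 9.48, 9.20, 9.27, 9.30 and 8.83 in E+7P and 9.52, 9.30, 9.08, 8.79 and 8.90 in E+14P. Each of its arrays from day 3 on lay below every E2 array, and the E+1P arrays overlapped those of E2. FKBP11, a proline isomerase of secretory cells, had 8.01, 8.31, 7.62, 8.47 and 8.67 in E2 and 8.28, 7.99, 7.94, 7.80 and 7.94 in E+1P, and 6.79, 6.78, 7.26, 7.75 and 6.66 in E+3P, 7.29, 6.19, 7.04, 6.92 and 6.32 in E+7P and 7.46, 6.98, 6.68, 7.32 and 7.13 in E+14P. E+7P was its lowest group, at -1.47 to E2, and E+3P replicate 4 (7.75) lay within the E2 range. CREB3L4, a membrane-anchored transcription factor of the endoplasmic reticulum, had signals of 6.01, 5.88, 6.13, 6.18 and 6.27 in E2 and 5.69, 6.20, 6.40, 5.91 and 5.95 in E+1P, and 4.88, 5.09, 5.71, 6.08 and 5.20 in E+3P, 5.25, 4.97, 5.59, 5.23 and 5.84 in E+7P and 5.41, 4.88, 5.69, 5.44 and 5.66 in E+14P. E+3P replicate 4 again lay within the E2 range, and the 10 arrays of E+7P and E+14P did not overlap E2.

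AGR3, a member of the disulfide isomerase family, had the lowest E+3P difference of the 63 genes, -2.46. Its log2 signals were 10.47, 10.49, 9.91, 10.43 and 10.49 in E2 and 10.50, 10.36, 10.71, 10.28 and 10.66 in E+1P, and 8.64, 3.31, 8.08, 9.60 and 9.88 in E+3P, 9.59, 9.32, 10.03, 9.69 and 9.88 in E+7P and 9.48, 9.59, 9.80, 8.82 and 9.58 in E+14P. The E+3P mean rested on replicate 2 and, less, on replicate 3. The difference was -0.98 in the other E+3P arrays, and replicates 4 and 5 lay just below the lowest E2 array. AGR3 is also the 1 gene of 82 measured mucin and mucus genes among the 63 (1.22%, beside 0.406% of all genes).

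For the sugar chains, TUSC3, a subunit of oligosaccharyltransferase, the enzyme that joins N-linked sugars to proteins, had log2 signals of 6.67, 7.08, 7.14, 6.68 and 6.71 in E2 and 6.71, 6.69, 6.88, 6.62 and 6.75 in E+1P, and 5.31, 5.93, 5.17, 5.97 and 6.05 in E+3P, 5.94, 5.93, 6.0, 5.98 and 6.32 in E+7P and 5.36, 6.31, 5.99, 5.03 and 5.28 in E+14P. All 15 later arrays lay at least 0.30 below the 10 earlier ones, and E+1P was as tight as any group (SD 0.10). GFPT1 encodes the rate-limiting enzyme of the hexosamine pathway, which supplies the sugar donors. GFPT1 had 9.45, 9.45, 9.06, 9.70 and 9.77 in E2 and 9.85, 9.51, 9.69, 9.41 and 9.75 in E+1P, and 8.64, 8.44, 8.57, 9.39 and 8.89 in E+3P, 8.71, 8.78, 8.91, 8.97 and 8.62 in E+7P and 8.82, 8.79, 8.77, 8.54 and 8.69 in E+14P. Its E+1P mean was 0.16 above E2 and its later means were -0.70, -0.69 and -0.76 to E2, with E+3P replicate 4 (9.39) inside the E2 range. MPDU1, needed for the use of dolichol-bound mannose, had 7.62, 8.02, 7.32, 7.99 and 7.85 in E2 and 7.57, 7.37, 7.38, 7.58 and 7.72 in E+1P, and 6.71, 6.25, 6.85, 7.32 and 7.11 in E+3P, 6.97, 6.94, 7.37, 7.19 and 7.27 in E+7P and 7.06, 6.94, 7.14, 6.87 and 7.42 in E+14P. It lay close to the edge of the day 1 window at -0.24 and met the rule in 15 of the 25 sets with an array left out. ARF4, a small GTPase of Golgi transport, had 9.49, 9.61, 9.12, 9.78 and 9.78 in E2 and 9.41, 9.25, 9.44, 9.08 and 9.36 in E+1P, and 8.89, 9.08, 8.70, 9.23 and 8.72 in E+3P, 8.74, 8.86, 8.75, 9.03 and 8.70 in E+7P and 9.02, 8.89, 8.79, 8.68 and 8.69 in E+14P. ARF4 lay just inside 2 limits, at -0.25 in E+1P and -0.63 in E+3P.

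The other genes of these lists were tested with limma against E2, since they were not chosen on these contrasts. Of 109 further endoplasmic reticulum genes 10 fell and 4 rose in E+1P, 51 fell and 1 rose in E+3P, 42 fell and 1 rose in E+7P, and 37 fell and 2 rose in E+14P. Of all 40489 probe sets 0.929% were lower and 1.39% higher in E+1P, 5.34% and 5.07% in E+3P, 2.36% and 1.83% in E+7P, and 2.29% and 1.48% in E+14P. Of these probe sets 23979 have no gene symbol, so here and below this background is unlike the named genes of the lists. The medians of the 109 were -0.17, -0.36, -0.34 and -0.30 from E+1P to E+14P. Of 21 genes of the whole endoplasmic reticulum list that met the 3 later limits and the signal minimum, 16 were already more than 0.25 lower in E+1P. The 4 comparisons share the E2 arrays. Without the 4 arrays that stand apart 10, 38, 47 and 21 fell. The count of 10 for E+1P was 5 without E+1P replicate 1 or 4, and 6 without E+1P replicate 5 or E2 replicate 4. Of 91 further N-glycosylation genes 7 fell in E+1P already, 29 in E+3P, 19 in E+7P and 18 in E+14P, and 0 rose. Without the 4 arrays that stand apart 11, 19, 22 and 12 fell, and the E+1P count of 7 was 4 without E2 replicate 2 or 5 or E+1P replicate 3 or 4.

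Genes of motile cilia formed the other group, with 7 of 203 measured list genes: CAPSL, CIMAP3, SPATA17, FAM81B, PPIL6, LRGUK and CCDC103. That is 3.45% of the list, beside 0.406% of all genes. All 7 had E+3P replicates 2 and 3 as their lowest E+3P arrays and replicate 4 as their lowest E+14P array. E+14P replicate 4 was also the lowest for 7 of the 9 secretory genes and for 42 of all 63. E+3P replicates 2 and 3 were the lowest pair for 2 of the 9 and for 27 of all 63. The mean over the 7 was -1.09, -3.25, -3.01, -0.72 and -0.36 in the E+3P arrays, -0.88 to -0.63 in E+7P, and -1.30, -0.79, -0.23, -2.75 and -0.94 in E+14P. Without the 4 arrays that stand apart 5 of the 7 still met the rule. In the E2 group all 7 were highest in replicate 3, which also had the highest ciliated marker mean of all arrays (7.82).

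CAPSL, a calcium-binding relative of calcyphosine, had log2 signals of 8.09, 7.83, 8.76, 7.45 and 8.11 in E2 and 7.84, 7.84, 8.35, 7.88 and 7.90 in E+1P, and 6.90, 4.13, 3.68, 6.95 and 7.44 in E+3P, 7.32, 7.52, 7.43, 7.19 and 7.30 in E+7P and 7.16, 7.06, 7.53, 3.64 and 6.70 in E+14P. Its 5 E+7P arrays lay in a narrow band just below the E2 arrays, apart from replicate 2. Its E+3P difference was -2.23, and -0.95 without replicates 2 and 3. CIMAP3, a microtubule-associated protein of cilia that is also 1 of the ciliated markers used here, had 8.11, 8.18, 8.93, 7.09 and 8.0 in E2 and 7.95, 7.73, 8.24, 7.13 and 8.06 in E+1P, and 6.62, 4.68, 4.24, 7.50 and 7.37 in E+3P, 7.21, 6.97, 6.95, 7.30 and 7.26 in E+7P and 6.61, 7.03, 7.73, 5.5 and 6.92 in E+14P. E2 replicate 4 (7.09) lay among the later arrays. SPATA17, a calmodulin-binding protein first found in testis, had 7.11, 6.79, 8.03, 6.36 and 6.94 in E2 and 7.23, 6.77, 7.61, 6.64 and 6.80 in E+1P, and 5.97, 3.37, 3.37, 6.58 and 6.70 in E+3P, 6.44, 6.54, 6.17, 6.37 and 6.40 in E+7P and 5.54, 6.44, 6.70, 3.96 and 6.04 in E+14P. Without the arrays that stand apart its later differences were -0.63, -0.66 and -0.82. FAM81B, a gene of the cilium list with little known of its role, had 6.0, 5.57, 6.04, 5.17 and 5.97 in E2 and 5.6, 5.18, 6.34, 4.96 and 5.57 in E+1P, and 4.83, 2.63, 2.45, 5.13 and 5.47 in E+3P, 5.19, 5.05, 4.74, 5.04 and 5.30 in E+7P and 4.64, 5.01, 5.39, 3.00 and 5.27 in E+14P. Within the E2 range lay replicate 5 of E+3P, replicates 1 and 5 of E+7P and replicates 3 and 5 of E+14P.

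PPIL6, a cyclophilin-like protein gene, LRGUK, needed for sperm tails in mice, and CCDC103, which helps to attach dynein arms, had these same lowest arrays, with smaller differences in E+3P. Their E+3P differences to E2 were -1.52, -1.40 and -1.18 in that order, and -0.41, -0.79 and -0.78 without replicates 2 and 3. Neither PPIL6 nor LRGUK met the rule without the 4 arrays. MEIG1, needed for sperm formation in mice, and RGS22, a regulator of G protein signalling found in testis, stood on no list. Both also had replicate 4 as their lowest E+14P array, as did most of the chosen genes (42 in all). In E+3P, RGS22 had replicates 2 and 3 as its lowest arrays, and MEIG1 did not. MEIG1 was lowest in replicate 3 (4.78), but its replicate 2 (5.08) lay above another E+3P array (4.90). RGS22 had 6.27, 4.47, 3.92, 7.25 and 7.36 in E+3P against 6.60 to 8.66 in E2, so that replicates 4 and 5 lay within the E2 range.

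**Figure D4:**
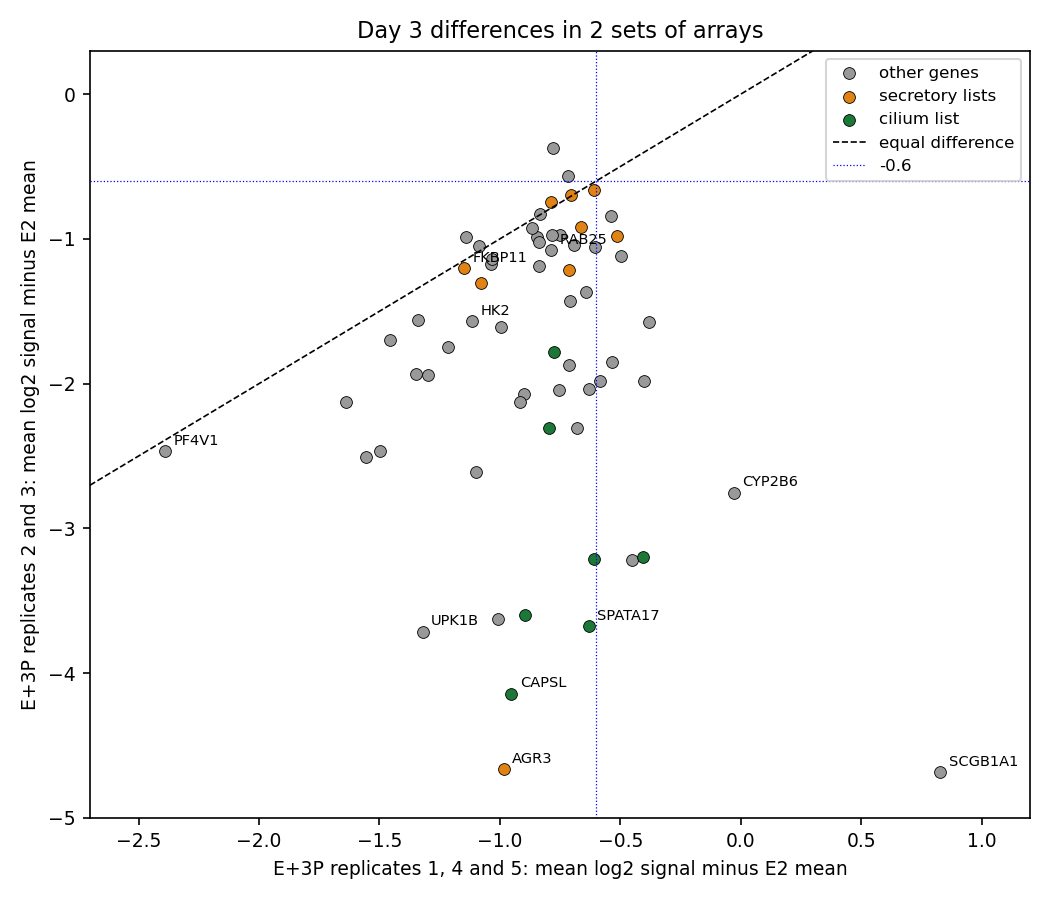
For each of the 63 genes, the mean E+3P log2 difference to E2 in replicates 2 and 3 (vertical) against that in replicates 1, 4 and 5 (horizontal), coloured by list, with the dashed line where both are equal and dotted lines at -0.6. Cilium list genes lie far below the dashed line, most secretory list genes lie near it, AGR3 lies lowest of the secretory genes, and SCGB1A1 is the 1 gene to the right of 0.

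The 196 further genes of the cilium list were tested against E2 in the same fit, after the same removal of the genes chosen by the rule. They still hold 2 genes that met the levels and were left out by symbol, and the further mitochondrial genes hold 1. This list too was written with earlier results of these data known. In E+1P 3 fell and 1 rose, in E+3P 74 fell, in E+7P 13 fell and in E+14P 17 fell, with 0 higher on the 3 later days. Of all probe sets 0.929%, 5.34%, 2.36% and 2.29% were lower from E+1P to E+14P. The medians of the 196 were -0.21, -0.71, -0.33 and -0.55, so they lay below E2 on day 1 too. Of 33 genes of the whole list that met the 3 later limits and the signal minimum, 24 were already more than 0.25 lower in E+1P. Without the 4 arrays that stand apart the counts of genes that fell were 5, 16, 19 and 11, and the E+3P median was -0.35 in place of -0.71. The E+3P count of 74 was 20 without E+3P replicate 2, 29 without replicate 3 and 113 without replicate 5. It was 45, 32 and 46 without E2 replicates 1, 3 and 5. The E+7P count of 13 was 8 without E2 replicate 3 or E+7P replicate 3 and 7 without E+7P replicate 5. The E+14P count of 17 was 10 without E2 replicate 1 or E+14P replicate 4 and 27 without E+14P replicate 3, and the E+1P count of 3 was 1 without E2 replicate 1 or 3 or E+1P replicate 1, 2 or 4.

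LYZ, SERPINA1, PF4V1, ECRG4 and UPK1B were among the 8 genes with the lowest later means. Of 32 measured genes of the immune and defence list LYZ alone was among the 63 (3.125%, beside 0.406% of all genes). LYZ, lysozyme, an antibacterial enzyme of mucosal secretions and of macrophages, had log2 signals of 11.39, 11.63, 11.29, 11.77 and 11.65 in E2 and 11.27, 11.38, 11.17, 11.40 and 11.69 in E+1P, and 9.73, 7.76, 10.11, 10.67 and 10.94 in E+3P, 9.32, 9.15, 9.74, 10.04 and 9.60 in E+7P and 9.87, 9.31, 9.81, 8.50 and 9.40 in E+14P. The E2 and E+1P arrays lay within 11.17 to 11.77, and all 15 later arrays lay below them by at least 0.24. E+3P replicate 2 (7.76) was the lowest, and the E+3P difference of -1.71 was -1.10 without replicates 2 and 3. LYZ is also 1 of the 9 measured myeloid markers (of 10), whose mean was 6.13 to 6.80 in E2, 6.19 to 6.88 in E+1P, 5.42 to 6.54 in E+3P, 5.96 to 6.72 in E+7P and 6.24 to 6.75 in E+14P.

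SERPINA1, alpha-1 antitrypsin, an inhibitor of neutrophil elastase and a gene of the estrogen response list, had 9.76, 9.65, 7.72, 8.98 and 9.60 in E2 and 8.67, 9.14, 8.72, 9.23 and 8.73 in E+1P, and 7.51, 5.90, 7.37, 8.34 and 6.91 in E+3P, 7.66, 6.92, 7.29, 7.84 and 7.73 in E+7P and 7.87, 6.55, 7.43, 7.30 and 7.76 in E+14P. E2 replicate 3 (7.72) was more than 1 below the other E2 arrays, and several later arrays lay above it. PF4V1, a chemokine of the platelet factor family, had 8.95, 9.78, 5.70, 8.61 and 9.27 in E2 and 8.33, 8.53, 8.06, 8.11 and 8.25 in E+1P, and 5.6, 6.08, 5.91, 6.83 and 5.79 in E+3P, 6.53, 5.71, 6.38, 6.46 and 6.24 in E+7P and 5.96, 5.86, 6.54, 5.81 and 6.30 in E+14P. Its later differences, -2.42, -2.20 and -2.37, had the lowest mean of the 63 genes. All 15 later arrays lay below the other E2 arrays and all E+1P arrays, but E2 replicate 3 (5.70) lay among them. PF4V1 has a close relative, PF4, and the array's probes may not tell the pair apart.

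ECRG4, which encodes the secreted peptide precursor augurin, had 9.93, 9.07, 9.53, 10.57 and 8.95 in E2 and 9.50, 9.70, 10.24, 7.80 and 10.02 in E+1P, and 8.03, 8.14, 6.83, 7.79 and 8.11 in E+3P, 8.25, 8.40, 8.43, 8.95 and 7.55 in E+7P and 6.69, 7.09, 7.76, 5.74 and 7.07 in E+14P. E+14P was its lowest group and lay below all E2 arrays, while E+1P replicate 4 (7.80) lay among the later arrays. UPK1B, a uroplakin tetraspanin of epithelial surfaces, had 11.59, 11.37, 9.69, 11.52 and 11.54 in E2 and 10.69, 10.93, 10.87, 11.01 and 11.12 in E+1P, and 9.11, 5.62, 9.24, 10.20 and 10.15 in E+3P, 9.80, 9.70, 10.41, 10.49 and 10.64 in E+7P and 10.11, 9.64, 10.15, 8.50 and 10.13 in E+14P. Its E+1P arrays were tight (SD 0.16), E+3P replicate 2 (5.62) lay far below the rest, and E2 replicate 3 (9.69) lay within the later range. MMP7, matrilysin, a protease of glandular epithelium, had 6.96, 7.44, 6.98, 7.96 and 8.09 in E2 and 7.86, 6.71, 7.38, 7.16 and 7.39 in E+1P, and 4.89, 3.27, 4.44, 7.96 and 6.58 in E+3P, 6.31, 6.35, 7.88, 6.95 and 6.08 in E+7P and 5.63, 5.52, 7.12, 5.48 and 6.24 in E+14P. E+3P replicate 4 (7.96) and E+7P replicate 3 (7.88) lay within the upper E2 range, while E+3P replicates 1, 2 and 3 lay below every other array. TIMP1, an inhibitor of matrix proteases, had a mean of 10.53 in E2 and 10.36 in E+1P, and of 9.46, 9.40 and 9.40 on the later days.

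HK2, hexokinase 2, which traps glucose in the cell, had log2 signals of 6.93, 6.67, 7.44, 6.96 and 6.40 in E2 and 6.88, 7.03, 6.77, 6.79 and 7.30 in E+1P, and 4.81, 5.06, 5.56, 6.39 and 6.09 in E+3P, 5.34, 5.17, 5.24, 5.56 and 5.30 in E+7P and 5.87, 5.14, 5.19, 5.32 and 5.05 in E+14P. Its means on days 7 and 14 were both 5.32, and the groups before and after day 3 did not overlap, although E+3P replicate 4 (6.39) touched the lowest E2 array (6.40). TNFRSF21, death receptor 6, had 9.74, 9.79, 7.98, 10.00 and 9.57 in E2 and 9.94, 9.35, 9.47, 9.56 and 9.63 in E+1P, and 7.36, 7.02, 8.42, 7.88 and 8.64 in E+3P, 8.54, 9.03, 8.54, 8.44 and 8.44 in E+7P and 8.22, 8.20, 8.49, 8.13 and 8.19 in E+14P. E2 replicate 3 (7.98) lay among the later arrays, and the other E2 arrays and all of E+1P lay above every later array.

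**Figure D5:**
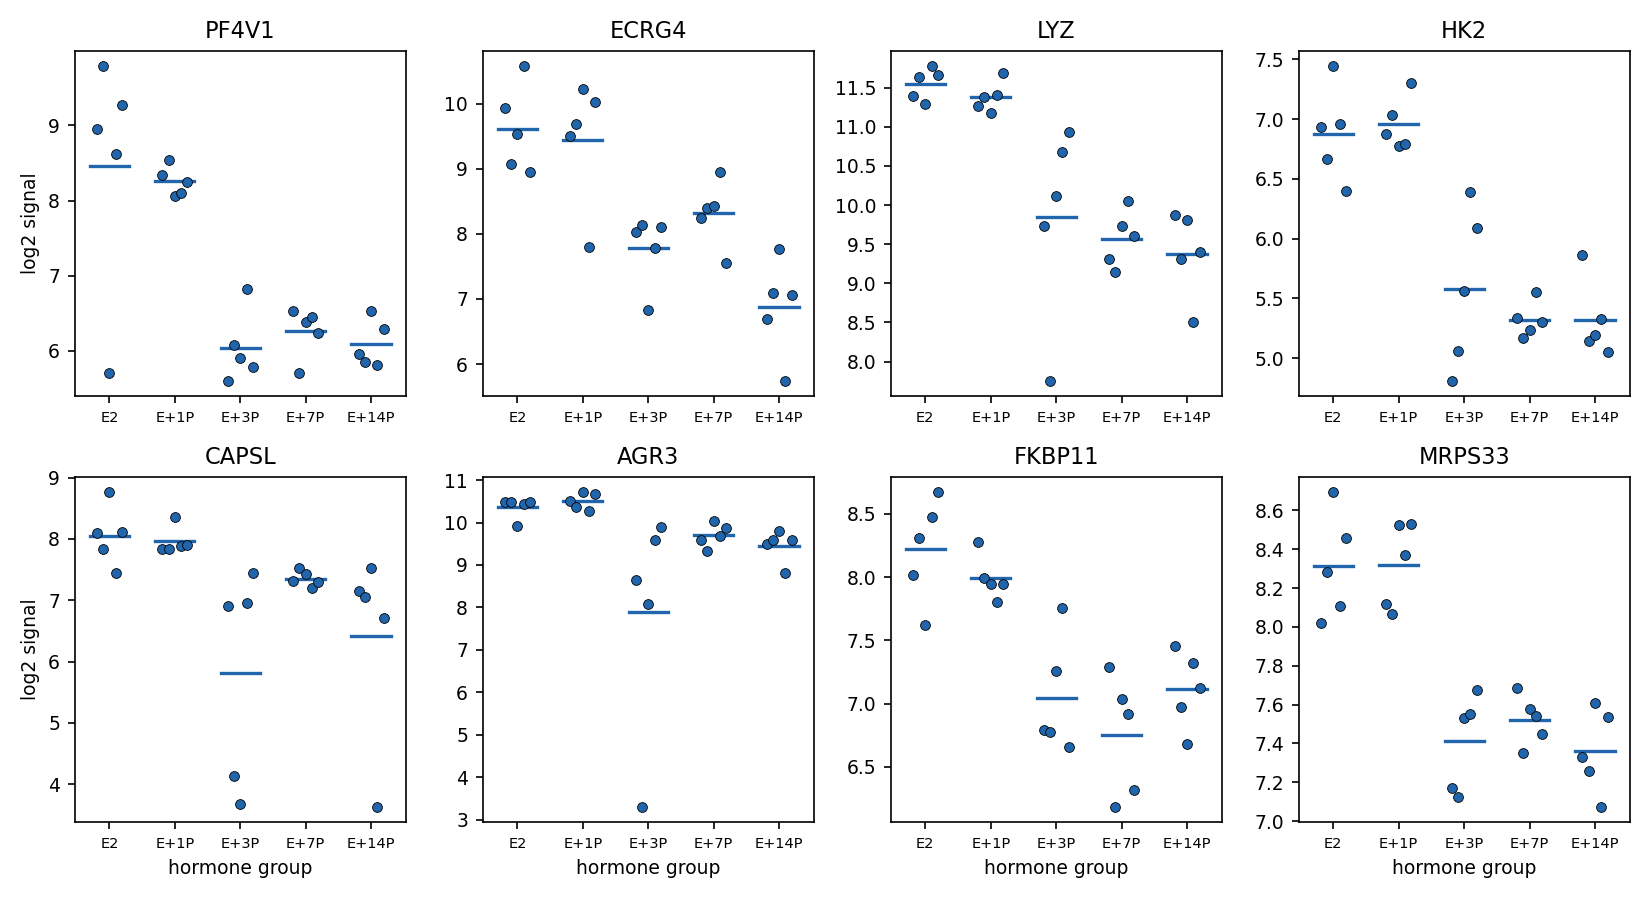
Log2 signal of 8 of the genes on each array (points) by hormone group, with a line at the group mean. LYZ, HK2 and MRPS33 show no overlap between the first 2 and the last 3 groups, PF4V1 has 1 low E2 array (5.70), and CAPSL and AGR3 have their lowest arrays in E+3P or E+14P.

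The translation list gave 4 of the 63 genes and the mitochondrial list 2. These are 3.10% and 0.922% of their measured genes, beside 0.406% of all genes. RPL39L had the lowest later mean of the 6 genes, with -1.89, -1.56 and -1.37 to E2 from E+3P to E+14P. MRPS33, a protein of the mitochondrial ribosome, had log2 signals of 8.02, 8.28, 8.69, 8.11 and 8.46 in E2 and 8.12, 8.06, 8.52, 8.37 and 8.53 in E+1P, and 7.17, 7.12, 7.53, 7.55 and 7.67 in E+3P, 7.68, 7.35, 7.58, 7.54 and 7.45 in E+7P and 7.33, 7.26, 7.61, 7.08 and 7.54 in E+14P. The 15 later arrays lay at least 0.34 below the 10 earlier ones, the widest gap of the 63 genes, and the group SDs were 0.27, 0.22, 0.25, 0.13 and 0.22. COX16, an assembly factor of cytochrome c oxidase, had 8.67, 8.78, 8.91, 8.67 and 8.74 in E2 and 8.79, 8.30, 8.65, 8.71 and 8.99 in E+1P, and 7.89, 7.49, 7.65, 7.84 and 8.01 in E+3P, 8.34, 7.84, 8.29, 8.13 and 7.79 in E+7P and 8.59, 7.86, 8.16, 8.09 and 8.06 in E+14P. All 15 later arrays lay below every E2 array, and E+1P replicate 2 (8.30) lay within the later range. In E+14P the COX16 difference of -0.60 only just met the limit, and it was -0.55 without replicates 4 and 5.

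RPL39L, a ribosomal protein gene related to RPL39, had 6.14, 5.66, 6.06, 5.31 and 6.94 in E2 and 6.26, 5.68, 6.16, 6.47 and 6.30 in E+1P, and 4.03, 4.19, 2.92, 4.47 and 5.07 in E+3P, 3.09, 4.07, 4.71, 5.05 and 5.38 in E+7P and 4.83, 5.54, 4.87, 3.51 and 4.50 in E+14P. E+7P spanned 3.09 to 5.38, and E+7P replicate 5 and E+14P replicate 2 lay above the lowest E2 array. RPL26L1, a relative of RPL26, had 8.65, 8.71, 8.97, 8.61 and 8.69 in E2 and 8.55, 8.58, 8.67, 8.45 and 8.14 in E+1P, and 8.32, 8.04, 8.28, 7.96 and 7.76 in E+3P, 8.12, 8.10, 7.83, 7.81 and 7.30 in E+7P and 8.07, 8.30, 8.19, 8.19 and 7.81 in E+14P. Its later arrays lay below every E2 array, while E+1P replicate 5 (8.14) lay among them. Whether the probes for RPL39L and RPL26L1 tell these genes from their close relatives is not given in the sources used here. RPS19BP1, a protein that binds ribosomal protein S19, had 6.03, 6.45, 6.12, 6.20 and 5.99 in E2 and 5.71, 6.24, 6.33, 5.94 and 6.0 in E+1P, and 5.29, 6.09, 5.47, 5.18 and 5.66 in E+3P, 5.51, 5.56, 5.48, 5.52 and 5.44 in E+7P and 4.83, 5.35, 5.63, 5.61 and 6.02 in E+14P. The 5 E+7P arrays were very close (SD 0.04), and 1 E+3P and 1 E+14P array lay within the E2 range. SLC7A11, the cystine and glutamate exchanger, had 5.52, 6.25, 7.02, 5.49 and 5.6 in E2 and 6.04, 5.76, 6.23, 6.24 and 5.46 in E+1P, and 4.37, 4.08, 3.90, 6.07 and 5.73 in E+3P, 4.73, 5.14, 5.39, 5.19 and 5.51 in E+7P and 4.69, 5.26, 5.81, 4.59 and 5.11 in E+14P. E+3P replicates 4 and 5, E+7P replicate 5 and E+14P replicate 3 lay within the E2 range. Of 125 further genes of the translation list 4 fell and 5 rose in E+1P and 11 fell and 2 rose in E+3P, beside 0.929% lower and 1.39% higher of all probe sets in E+1P and 5.34% and 5.07% in E+3P. In E+7P 6 fell and in E+14P 4, beside 2.36% and 2.29% of all probe sets, and 0 rose, although 3 and 1 rose without E+3P replicate 5. In E+1P 2 fell without E2 replicate 4 or 5 or E+1P replicate 1, 2 or 5, and 3 rose without E+1P replicate 4. In E+3P 6, 7 and 5 fell without E2 replicate 2, E2 replicate 4 and E+3P replicate 2 in that order, and 0 or 1 rose without E2 replicate 1, 2 or 5 or E+3P replicate 4. The E+7P count was 1 to 3 without any 1 of the E+7P arrays or of E2 replicates 2 to 5. The E+14P count was 1 or 2 without E2 replicate 2 or 4, E+14P replicate 2, 4 or 5, or the 4 arrays that stand apart. Of 215 further mitochondrial genes 8 fell in E+1P (4 or 5 without E2 replicate 3, 4 or 5 or E+1P replicate 1 or 2), 79 in E+3P, 68 in E+7P and 58 in E+14P and 0 rose, with 43 in E+7P without E+7P replicate 5 and 35 in E+14P without the 4 arrays that stand apart.

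In some genes, SCGB1A1, RAB25, CYP2B6 and RIC3 among them, the later means hid arrays of both kinds. SCGB1A1, a secretoglobin of mucosal secretions on the progestin response list, had log2 signals of 10.92, 11.23, 11.51, 10.97 and 11.47 in E2 and 10.83, 11.99, 10.23, 10.97 and 11.74 in E+1P, and 11.62, 6.47, 6.60, 12.39 and 12.13 in E+3P, 10.08, 10.65, 11.04, 11.11 and 7.52 in E+7P and 11.46, 9.34, 11.46, 10.03 and 10.76 in E+14P. E+3P replicates 2 and 3 were more than 4 below every E2 array, while replicates 1, 4 and 5 lay above every E2 array, so that without the 4 arrays the E+3P difference was 0.83 in place of -1.38. It was the 1 gene of the 63 with a later difference above 0 in that setting. RAB25, an epithelial small GTPase, had 8.44, 8.27, 7.68, 8.33 and 8.54 in E2 and 8.14, 8.06, 8.38, 8.41 and 7.93 in E+1P, and 6.78, 5.0, 9.36, 7.82 and 7.81 in E+3P, 7.18, 7.32, 7.91, 7.70 and 7.80 in E+7P and 7.62, 6.85, 6.99, 8.05 and 8.55 in E+14P. E+3P replicate 3, the array highest in squamous markers, and E+14P replicate 5 were above every E2 array, and E+3P replicate 2 was far below. CYP2B6, an enzyme of drug and steroid metabolism, had 8.58, 8.33, 4.72, 8.74 and 8.73 in E2 and 8.06, 8.68, 8.72, 7.29 and 7.55 in E+1P, and 7.92, 5.12, 5.02, 6.57 and 8.88 in E+3P, 6.42, 6.64, 8.69, 7.18 and 7.03 in E+7P and 8.28, 6.62, 7.80, 5.45 and 6.14 in E+14P. E2 replicate 3 (4.72) was the lowest of its 25 arrays, and without the 4 arrays its E+3P difference was -0.03. RIC3 had 7.72 in E+14P replicate 1, above every E2 array (7.17 to 7.57), but 5.61 in E+14P replicate 4 and 5.46 in E+3P replicate 2.

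The 37 genes on no list included CHST10, a sulfotransferase for the HNK-1 glycan, with 6.42, 6.11, 5.18, 6.19 and 6.46 in E+3P, 5.89, 6.37, 6.22, 6.13 and 6.39 in E+7P and 5.70, 5.88, 6.14, 6.28 and 6.23 in E+14P, against 6.61 to 7.58 in E2 and 6.75 to 7.92 in E+1P. They also included CYSTM1, a small cysteine-rich membrane protein gene, with 7.08, 7.72, 6.59, 7.63 and 7.80 in E+3P, 7.34, 7.29, 7.77, 7.85 and 7.64 in E+7P and 7.95, 7.34, 7.49, 6.79 and 7.35 in E+14P, against 7.97 to 8.44 in E2 and 8.04 to 8.39 in E+1P. In both genes the later arrays lay below all earlier ones, as they did for ARHGEF33. PRDX4, a peroxiredoxin of the endoplasmic reticulum, had means of 8.14, 8.01, 7.06, 7.12 and 7.42 from E2 to E+14P. POLR2G, a subunit of RNA polymerase II, had 8.16, 7.95, 7.33, 7.50 and 7.54, and all its 15 later arrays lay below every E2 array. RBBP7, a histone-binding subunit of chromatin complexes, had an E2 SD of 0.09 and later differences of -0.86, -0.81 and -0.73. Its E+3P replicate 5 (9.30) lay within the E2 range. Without the 4 arrays that stand apart its differences were -0.38, -0.81 and -0.44, and it did not meet the rule. H2BC7, a histone H2B gene with near-identical copies that the probes may not separate, had later differences of -1.08, -1.0 and -0.97 over all arrays.

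Further genes on no list can be placed by function. UGT8, which makes galactosylceramide, and MOGAT1, an acyltransferase of glycerolipid synthesis, had E+14P differences of -1.78 and -1.15. The Rab regulators TBC1D30 and RAB3IP had -1.36 and -0.93, and the signalling genes GRB14, an adaptor of the insulin receptor, and PLCH1, a phospholipase C, had -1.34 and -1.23. SLC39A11, a zinc transporter, had -0.65, and RIC3, a chaperone of acetylcholine receptors, -0.75. IGSF1, ENPP5, C20H16orf89, FAM3B, ZNF875, DDT, GON7, ADAMTS19, SYNGR2, ITPRID1, CHID1 and MAGEH1 complete the set, with E+14P differences of -1.63 for IGSF1 to -0.63 for MAGEH1.

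The lists for the proteasome (77 genes measured), lipid and sterol synthesis (71), the cell cycle (41) and ion and water transport contributed 0 genes. Of these lists 73, 58, 13 and 59 genes in that order were named and reached the signal minimum. Since 0.709% of all such genes are among the 63, a count of 0 says little about these functions. In all 26 of the 63 genes stood on a list and 37 on none. All 63 are protein-coding genes in the RefSeq annotation (assembly T2T-MMU8v2.0), spread over 18 chromosomes, and 0 pairs of them are direct neighbours.

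Within E2, replicate 3 stood at an end for most of the set. It was the lowest E2 array for 24 of the 63 genes and the highest for 23. PF4V1, SERPINA1, UPK1B, TNFRSF21 and CYP2B6 were among those it had lowest, and the 7 cilium list genes and RGS22 among those it had highest. Of the 9 secretory genes 6 were lowest in it. Its ciliated marker mean was 7.82 and its smooth muscle marker mean (9 of 10 markers) 8.21, against 6.53 to 7.32 and 6.29 to 6.79 in the other E2 arrays, and the part of tissue makeup in these values was not tested.

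The rule did not set the comparisons among the 3 later groups directly, but it bounded them. Each later mean had to lie at or below the later limit, so a gene that rose back above it was left out. The splits and calls given here therefore come in part from the rule. In these comparisons limma called 0 of the 63 genes. For E+7P against E+3P, 51 genes were higher and 12 lower with a median of 0.26. In this comparison 0.00494% of all probe sets were called higher and 0% lower, and 8 of the 63 genes were higher and 0 lower at an unadjusted p under 0.05, which 11.1% of all probe sets passed. Without the 4 arrays that stand apart, a setting added after seeing the data, 31 were higher and 32 lower in E+7P than in E+3P, with a median of -0.0042. For E+14P against E+7P, 19 were higher and 44 lower with a median of -0.15, and 32 and 31 without the 4 arrays, with a median of 0.01. There 0% of probe sets were called in each direction, and 0 genes higher and 3 lower passed the unadjusted threshold, against 4.27% of all probe sets. For E+14P against E+3P, 46 were higher and 17 lower with a median of 0.13, and 26 and 37 without the 4 arrays, with a median of -0.04. In this last comparison 0% of probe sets were called in each direction, and 2 genes higher and 1 lower passed the unadjusted threshold, against 11.9% of all probe sets. The lowest adjusted p over the 63 genes was 0.392, 0.987 and 0.312 in these comparisons, and a p above the threshold does not show that the days were alike.

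The genes nearest to a call were mostly those with low E+3P replicates 2 and 3. AGR3 was 1.80 higher in E+7P than in E+3P (SE 0.72, limma adjusted p = 0.392), with all 5 E+7P arrays above 3 of the 5 E+3P arrays. CAPSL was 1.53 higher (SE 0.64, adjusted p = 0.404), UPK1B 1.35 (SE 0.59, adjusted p = 0.41), MMP7 1.29 (SE 0.58, adjusted p = 0.429) and SPATA17 1.19 (SE 0.57, adjusted p = 0.445). TNFRSF21, with 1 E+3P array inside the E+7P range, was 0.74 higher (SE 0.30, adjusted p = 0.396). Leaving out the 4 arrays gave differences of 0.16 for AGR3, 0.26 for CAPSL, 0.06 for UPK1B, 0.11 for MMP7 and -0.03 for SPATA17. In E+14P against E+3P, COX16 was 0.38 higher (SE 0.14, adjusted p = 0.312) and ECRG4 differed by -0.91 (SE 0.42, adjusted p = 0.397).

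At the limits of the rule the set shaded into other genes. ARF4 and RPL26L1 lay just inside the lower day 1 limit at -0.25, while CLXN (-0.25) and DNAJC10 (-0.26) lay just outside it. CYP2B6 (0.24) and CHST10 (0.21) lay inside the upper limit, and TSTD1 (0.30) and ARHGAP26 (0.32) outside. In E+3P, RPS19BP1 (-0.62) and ARF4 (-0.63) were inside, and COX5A (-0.59) and UQCR11 (-0.59), both of the respiratory chain, outside. In E+7P, PLCH1 (-0.60) and RIC3 (-0.60) were inside, and RSPH1 (-0.59), of the axoneme, and DAD1 (-0.59), of oligosaccharyltransferase, outside. In E+14P, COX16 (-0.60) and SCGB1A1 (-0.61) were inside, and MCTS1 (-0.60) and ALG5 (-0.57) outside. For the E2 minimum, FAM81B (5.75) and MOGAT1 (5.84) were inside, and SPINK9 (5.45) and ANKRD36C (5.20) outside.

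Another probe set was measured for 3 of the genes. That of TNFRSF21 lay at -1.03, -0.598 and -0.99 to E2 from E+3P to E+14P, beside -1.55, -0.82 and -1.17 for the one chosen. That of ARHGEF33 gave -0.38, -0.24 and -0.13, beside -1.37, -0.91 and -1.20, and that of ZNF875 gave -0.20, -0.03 and 0.05, beside -1.03, -0.68 and -1.35. The second probe set of TNFRSF21 thus lay just above the limit of -0.6 in E+7P, and those of ARHGEF33 and ZNF875 lay above it on all 3 later days. The mean E2 signals of the second probe sets of ARHGEF33 and ZNF875 were 5.73 and 5.76, against 8.34 and 6.45 for the ones chosen.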

How the data were processed

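Total RNA of frozen cervix was amplified, labelled with biotin and read on Affymetrix whole-transcript arrays, 1 per animal, per the labels' protocols. The deposited table of the authors holds log2 signals of 40489 probe sets on 25 arrays. Per the submitters' processing notes it was made with Affymetrix Expression Console, and these notes state neither its version nor how probes were summarized and normalized. Values from 0.618 to 13.7 gave the unit. Array medians lay between 5.502 and 5.604, and at equal rank no array lay more than 0.29 from the mean of all arrays. No detection calls were used, so signal over background is unknown; precision is limited by the 5 arrays per group. Groups follow the array labels, although the design text of the series states different numbers of animals. No batch is stated in the labels.

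Of the probe sets 16020 are listed for 1 gene symbol, 490 for several and 23979 for none. Symbols come from the platform annotation, and PIFO was read as CIMAP3. The 63 genes, the function lists, the marker lists and the 4 arrays left out were chosen with earlier results of these data known. The rule for genes given array by array took the 8 lowest later means, up to 4 genes per list and the 8 lowest adjusted p of the comparisons among the later groups.

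Group means were computed in Python 3.11.15 with pandas 2.3.3. Tests used limma 3.58.1 in R 4.3.3, with 1 coefficient per group over all 25 arrays, 20 residual degrees of freedom, a variance trend, 2-sided p-values and Benjamini-Hochberg adjustment over all 40489 probe sets at 0.05. The spread is pooled over the groups, so p-values are too small for a group that varies more. Data were simulated for E+7P against E+3P with 40489 probe sets. In them 77 of 100 changes of log2 1 and 94 of 100 of log2 2 were recovered, with 8 false calls. The genes chosen by the rule had a median SD of 0.67 in E+3P, against 0.27 for all genes. These shares therefore do not tell how many such changes would be found among the chosen genes. Calls of further list genes against E2 were added after seeing the data. The alternatives were quantile normalization, median centring, the mean of a gene's probe sets, genes with 1 probe set, group medians, other limits of the rule, a filter at the 40th percentile, array weights, a columnar marker covariate, a fit of 2 groups alone, no variance trend, and leaving out the 4 arrays or each array in turn.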

Additional observations from a re-analysis of the deposited data

Results flagged for a closer look

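Of 145 sets of 5 arrays (29 genes in 5 groups) 14 held a single array far from the other 4, with a gap over 0.71 of the whole range, where chance gives about 1 in 20. Of these 14, 5 were in E2 replicate 3: PF4V1 at 5.701 against 8.61 to 9.78 in the other E2 arrays, UPK1B at 9.688 against 11.37 to 11.59, AGR3 at 9.907 against 10.43 to 10.49, TNFRSF21 at 7.983 against 9.57 to 10.00, and RPL26L1, the 1 that was high, at 8.969 against 8.61 to 8.71. E+3P replicate 2 was low for UPK1B, at 5.616 against 9.11 to 10.20 in the other E+3P arrays, and for AGR3, at 3.306 against 8.08 to 9.88. E+14P replicate 4 was low for CAPSL, at 3.636 against 6.70 to 7.53.

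The remaining 6 lay in 5 other arrays. ECRG4 was low in E+3P replicate 3, at 6.825 against 7.79 to 8.14, and SCGB1A1 in E+7P replicate 5, at 7.522 against 10.08 to 11.11. CAPSL was high in E+1P replicate 3, at 8.35 against 7.84 to 7.90, and TUSC3 in E+7P replicate 5, at 6.319 against 5.93 to 6.0. TNFRSF21 was high in E+7P replicate 2, at 9.025 against 8.44 to 8.54, and in E+14P replicate 3, at 8.488 against 8.13 to 8.22. What sets these arrays apart for these genes was not tested.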

How the results depend on the processing

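The number of genes found depended most on the limits of the rule. A day 1 window of 0.15 gave 31 genes, a later limit of -0.5 gave 106 and one of -0.8 gave 24, as follows from stricter or looser limits. A window of 0.35 gave 93. Leaving out each array in turn gave 54 to 73, and without the 4 arrays that stand apart 46 genes met the rule, 39 of them among the 63. Quantile normalization gave 62 genes (61 shared), median centring 72 (59 shared) and the mean of a gene's probe sets 62 (61 shared).

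In the comparisons among the later groups 0 of the 63 genes were called in either direction under all 34 alternatives, from 0 to 0 when single arrays were left out. The differences of 8 genes near a call kept their sign under all of these, except SPATA17 in E+7P against E+3P, which lay at -0.0314 when the 4 arrays were left out (limma adjusted p = 0.994). Over all probe sets, 2 were called higher in E+7P than in E+3P, and 0 to 58 when single arrays were left out, with 58 without E+3P replicate 5. In E+14P against E+3P the count of 0 higher became 19 and that of 0 lower became 4 without E+3P replicate 3, and they became 8 and 7 without E+14P replicate 5. The cause was not tested. No paired analysis was possible because the replicate numbers follow the order of the samples and pair no animals.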

Other observations

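The spread within a group was wider for the 63 genes than for all genes in each of the 5 groups, most of all on day 3. The median SD was 0.38 in E2, 0.22 in E+1P, 0.67 in E+3P, 0.26 in E+7P and 0.44 in E+14P, beside 0.21, 0.19, 0.27, 0.20 and 0.23 for all 15534 genes. The lowest E+3P array was replicate 3 for 28 genes, replicate 2 for 22, replicate 5 for 7, replicate 1 for 5 and replicate 4 for 1. The lowest E+14P array was replicate 4 for 42 of the 63 genes. With the 2 low E+3P arrays aside, 26 genes still had E+3P replicates 1, 4 and 5 below every E2 array.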
